A study of Mus musculus with 26 samples.

Results

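Ears with MC903-induced dermatitis were compared with vehicle ears across all genes, and the epidermal, immune, stromal, metabolic and resident tissue genes are described. The comparison was made between 14 of the 26 libraries of the series, chosen by treatment: 8 from MC903 mice and 6 from Vehicle mice. MC903 mice had 1 nmol of MC903 (calcipotriol, an analog of vitamin D) spread on the right ear daily for 6 days, and also received the drug-vehicle, ethanol. Vehicle mice received the carrier of MC903 in place of it, and the same drug-vehicle. All 14 were female wild-type Balb/cAnNRj mice, bought at 8 weeks of age. RNA came from 1 punch of 4 mm per ear, taken on day 9, and each mouse gave 1 library. The punch goes through the whole ear, so that it holds epidermis with hair follicles and sebaceous glands, dermis, fat, muscle and the cartilage plate.

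Keratinocytes divide in the basal layer, switch keratins as they move up through the spinous layer, and build the cornified envelope, a shell of cross-linked proteins and lipids that forms the barrier. Wounded or inflamed epidermis turns on another set of keratins together with small proline-rich proteins and S100 proteins. In atopic dermatitis the skin is also entered by T cells and myeloid cells, and calcipotriol acts on keratinocytes through the vitamin D receptor, which binds DNA together with retinoid X receptors.

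Total counts per library were 14311046 to 28036747 in MC903 mice and 13695023 to 35130972 in Vehicle mice. CPM stands for counts per 1e6 counts of the library, whose total was scaled by TMM (trimmed mean of M values). They are shares of a library, and in a bulk punch fewer cells of a type and less RNA per cell cannot be told apart. Genes were tested with edgeR's quasi-likelihood test, adjusted by Benjamini-Hochberg over 20167 genes. The fit held all 26 libraries of the series. Those from MC903 mice also given RGRN-305 or dexamethasone thus entered the filter, the scaling and the estimate of the spread. A fit of only the MC903 and Vehicle libraries gave 6806 rises and 6786 falls, with 1351 and 1311 DEGs as defined next. A gene is said to have risen or fallen where its adjusted p was below 0.05, and to be a DEG where its log2 fold change was also beyond 1.5. Among all genes tested, 34.5% rose and 35.7% fell, 7.46% were DEGs that rose and 7.58% were DEGs that fell, and in 42% the groups did not overlap. The median log2 fold change of all genes was -0.02. With library totals and no scaling factor the median was -0.28, and 4407 genes rose and 9980 fell in place of 6951 and 7209. The direction of changes below about 0.3 thus turns on the scaling, and so do the calls of some larger changes. MC903 mouse 7 and Vehicle mouse 2 had the fewest counts of their groups and lay farthest from them, at root mean square distances of 0.642 and 0.685 on the log2 scale from the median of the other mice of the group, against 0.332 to 0.465 and 0.306 to 0.438 for the other mice. Vehicle mouse 2 also had the fewest genes with a count in its group (24901), while MC903 mouse 7 had the most in its group (28185). All DEG rises and falls were counted again without these 2 libraries, which gave 1465 and 1524 in place of 1504 and 1528.

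**Figure D1:**
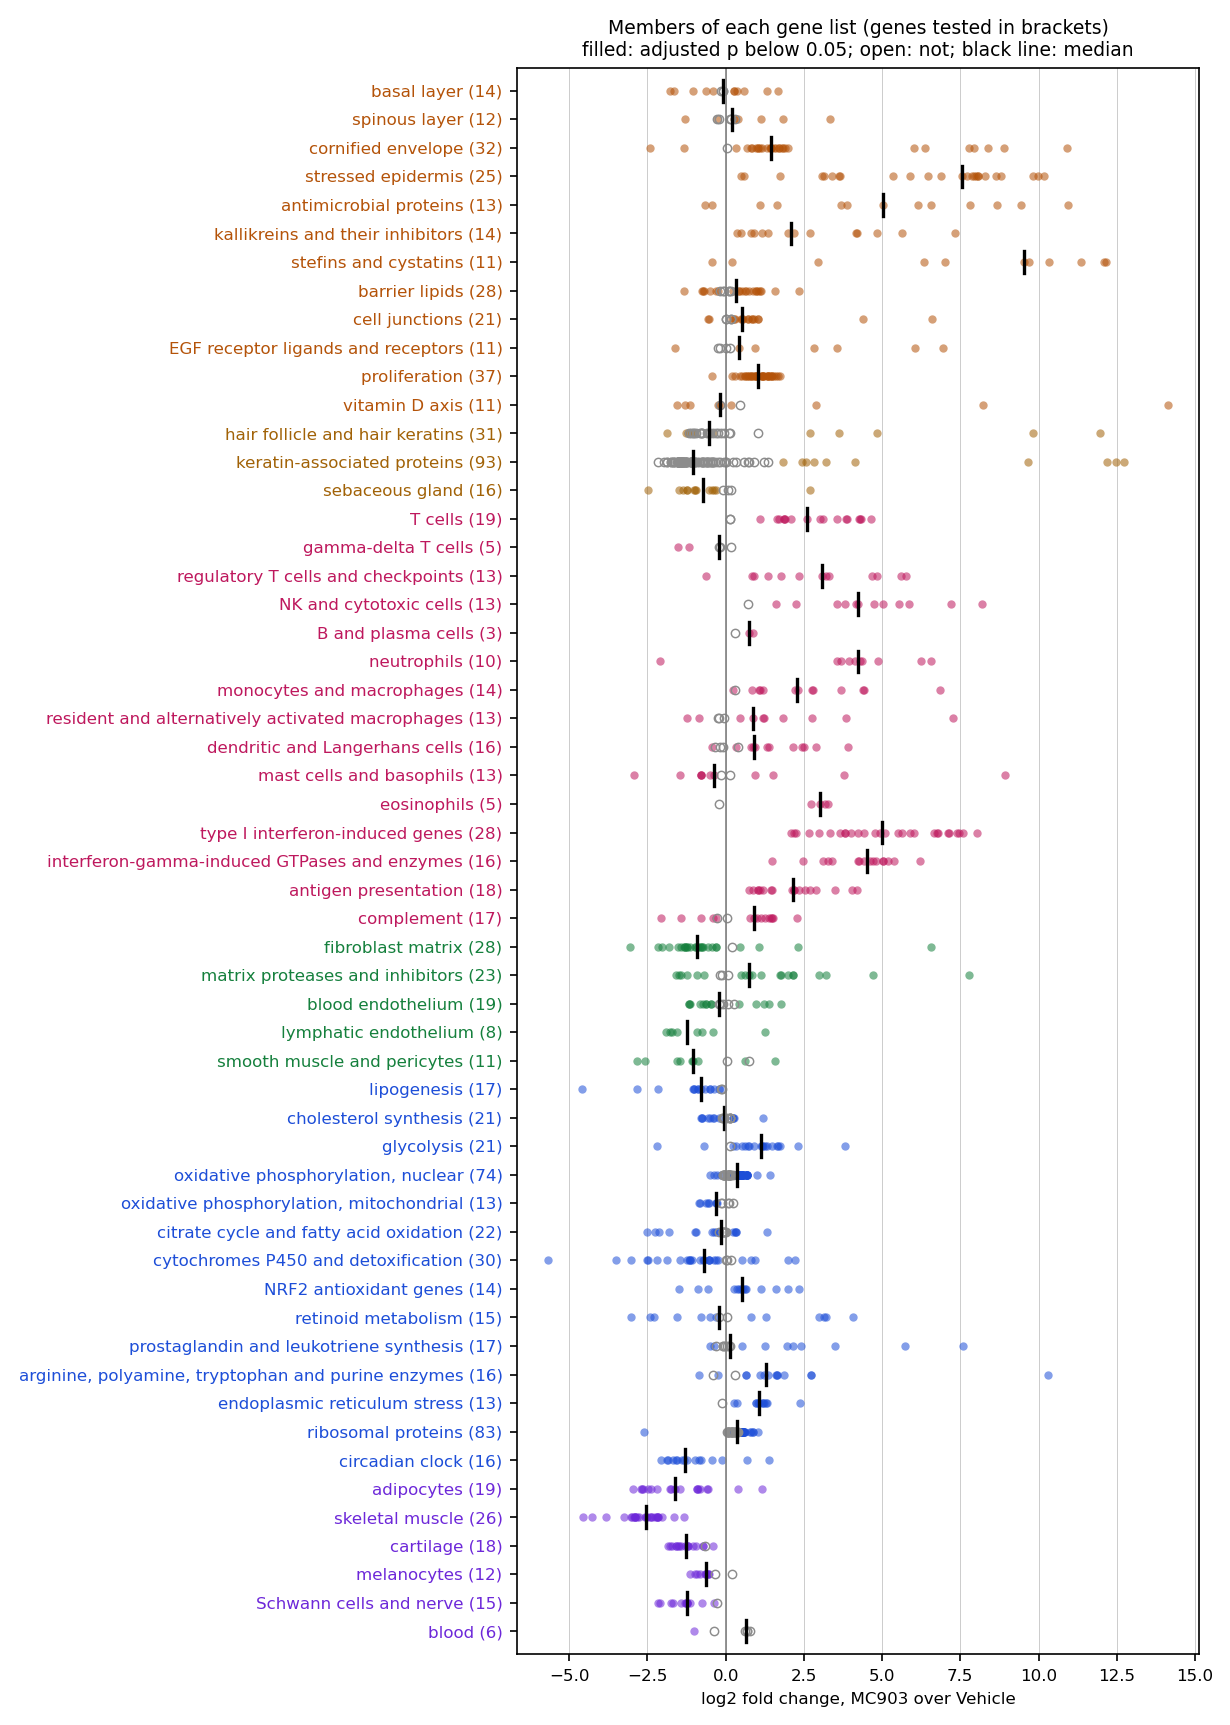
Each row is a gene list, each point a member at its log2 fold change of MC903 over Vehicle mice (x axis), filled where the adjusted p was below 0.05, and the black line is the median of the list. The lists of interferon-induced genes, stressed epidermis and stefins lie to the right, and those of skeletal muscle, adipocytes and cartilage to the left of 0.

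Cyp24a1, the enzyme that breaks down vitamin D, was the gene with the largest rise (log2 fold change 14.15, SE 0.42, adjusted p = 2.4e-18) and serves as a check of the labels. It had 1973 to 2780.0 CPM in MC903 mice and 0 to 0.687 CPM in Vehicle mice. Of 14 genes of the vitamin D axis 11 were tested, 4 of which rose and 5 fell. S100g, an intestinal calcium-binding protein, had 882 counts in MC903 mice and 2 in Vehicle mice, and Spp1, which codes for osteopontin, rose as well (log2 fold change 2.89, SE 0.28, adjusted p = 2.8e-09). Cyp27a1 and Cubn, which act in the making and uptake of vitamin D metabolites, fell by 1.31 and 1.55 on the log2 scale, and the calcium channel gene Trpv6 fell by 1.15. The receptor gene Vdr itself was at 76.5, 87.7 and 97.4 CPM in MC903 mice, against 71.2, 74.9 and 83.4 CPM in Vehicle mice (lowest, median and highest mouse of each group, as in all such values below). These ranges overlapped, and its rise of 0.19 was lost without Vehicle mouse 5 and was -0.07 with unscaled library totals.

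Among the 15 largest rises were also Gpr15lg, a skin chemoattractant for T cells, at 368, 440.0 and 578 CPM in MC903 mice, against 0.0395, 0.392 and 0.651 CPM in Vehicle mice (log2 fold change 10.35, SE 0.55, adjusted p = 2.8e-13). Akr1d1, a steroid reductase best known from liver, was at 49.1, 75.7 and 136 CPM in MC903 mice, against 0, 0.0441 and 0.165 CPM in Vehicle mice (log2 fold change 10.32, SE 0.79, adjusted p = 1.1e-10). Among the 15 largest falls were Nnat (neuronatin) at 0, 0.529 and 0.949 CPM in MC903 mice, against 7.15, 8.95 and 10.9 CPM in Vehicle mice (log2 fold change -4.05, SE 0.37, adjusted p = 2.4e-10). Wnt10b, a Wnt ligand of hair follicles and fat, was at 0.524, 0.894 and 1.07 CPM in MC903 mice, against 9.03, 9.72 and 11.9 CPM in Vehicle mice (log2 fold change -3.56, SE 0.23, adjusted p = 2.9e-13). Slc7a10, an amino acid transporter, fell by 3.47, and Opcml, a cell adhesion gene, by 3.56. The largest rises and falls were taken only from genes whose groups did not overlap.

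The promoters of the interferon-induced genes are shown because all 28 of these genes rose, as given below. Sequences are those of RefSeq on build GRCm38.p6, given 5′ to 3′ on the strand of the gene and upstream of its start, with the core of the interferon-stimulated response element (on either strand, overlapping matches merged) in capitals.
Isg15 (chr4:156200835-156200936, minus strand): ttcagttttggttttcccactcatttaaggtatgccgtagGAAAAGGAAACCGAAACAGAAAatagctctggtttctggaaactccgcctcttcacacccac
Rsad2 (chr12:26456523-26456612, minus strand): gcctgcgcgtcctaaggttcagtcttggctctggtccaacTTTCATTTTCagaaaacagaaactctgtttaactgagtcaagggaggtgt
Ifit1 (chr19:34640745-34640853, plus strand): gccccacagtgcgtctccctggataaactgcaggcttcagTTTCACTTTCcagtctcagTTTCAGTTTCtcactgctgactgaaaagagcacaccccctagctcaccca
Oas1a (chr5:120907526-120907585, minus strand): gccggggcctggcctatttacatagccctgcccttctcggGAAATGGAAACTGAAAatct

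Of the 28 type I interferon-induced genes 19 had a promoter in the table, and 11 of these (57.9%) held the core in the window from 250 bases before to 50 bases after a start, against 3.99% of all 27025 genes. For proliferation genes, 22 of 29 (75.9%) held a CCAAT box (CCAAT on either strand) and 12 (41.4%) the cell cycle homology region (TTTGAA on either strand), against 41.1% and 20.2% of all genes. The promoter of Top2a, the topoisomerase of dividing cells, is shown as the one with 6 CCAAT boxes, in capitals.
Top2a (chr11:99024203-99024439, minus strand): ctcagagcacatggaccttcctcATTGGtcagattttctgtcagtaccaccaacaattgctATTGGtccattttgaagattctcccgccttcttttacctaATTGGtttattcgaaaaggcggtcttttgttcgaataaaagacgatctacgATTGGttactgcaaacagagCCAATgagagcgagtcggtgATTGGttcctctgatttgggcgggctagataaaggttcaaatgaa
The core motif of the muscle factor MEF2, on either strand, stood in 1 of 17 skeletal muscle promoters (5.88%, that of Ttn) and in 4.23% of all. The direct repeat DR3 bound by the vitamin D receptor stood in 0 of 13 promoters of the vitamin D axis, where Cyp24a1 had no entry. It stood in 12 of all 27025 genes (0.0444%), so that its absence from 13 promoters carries no information. These are counts of letters and were not tested.

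In the epidermis, the basal keratins Krt14 and Krt15 moved in different directions. Krt14, a keratin of basal cells, was at 8937, 10979.9 and 16059.5 CPM in MC903 mice, against 3294, 3609.9 and 3936 CPM in Vehicle mice (log2 fold change 1.67, SE 0.12, adjusted p = 9.4e-13). Krt15, a basal keratin that is also typical of hair follicle stem cells, was at 512, 595 and 726 CPM in MC903 mice, against 1820.1, 1890.1 and 2045 CPM in Vehicle mice (log2 fold change -1.64, SE 0.08, adjusted p = 1.9e-15). All MC903 mice lay above all Vehicle mice for Krt14 and below them for Krt15. Of 14 basal layer genes 6 rose and 5 fell, or 3 and 8 with unscaled library totals. Among those that fell were genes for parts of the hemidesmosome, which anchors basal cells to the basement membrane: Dst by 1.77 and Col17a1 by 1.03 on the log2 scale. Skeletal muscle and nerve genes fell as well, as given below, and from which cells the fall of Dst came was not tested. Lamb3, which encodes a chain of the laminin under the hemidesmosome, fell by 0.62.

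In the spinous layer, Krt1 was at 6027, 7157 and 8378 CPM in MC903 mice, against 648, 683 and 809 CPM in Vehicle mice (log2 fold change 3.33, SE 0.11, adjusted p = 3.2e-19), without overlap. Its pairing partner Krt10 was at 16237, 26547 and 30502 CPM in MC903 mice, against 16073, 18525 and 22139 CPM in Vehicle mice, and these ranges overlapped (log2 fold change 0.41). Over the 12 spinous layer genes 5 rose and 2 fell, or 3 and 4 with unscaled library totals. Lgals7, which codes for galectin-7 of stratified epithelia, rose by 1.84 and the transcription factor gene Ovol1 by 1.13.

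Genes of the cornified envelope rose in 29 of 32 (median log2 fold change 1.45), and 29 of the 32 did not overlap between groups. Filaggrin and its relatives were divided. Flg, whose product bundles keratin filaments, was at 2683, 3147 and 3675 CPM in MC903 mice, against 519, 944 and 1261 CPM in Vehicle mice (log2 fold change 1.81, SE 0.20, adjusted p = 1.2e-08). Flg2 was at 186, 373 and 507 CPM in MC903 mice, against 1409.6, 1962 and 2104 CPM in Vehicle mice (log2 fold change -2.42, SE 0.21, adjusted p = 2.0e-10), so that every MC903 mouse lay below every Vehicle mouse. Besides Flg2 only Lce1m fell in this list (log2 fold change -1.32, SE 0.25, adjusted p = 5.3e-05), while the 13 other tested genes of the Lce1 cluster rose, by 0.69 (Lce1l) to 1.71 (Lce1k). The 6 genes of the Lce3 cluster, whose human relatives are induced in injured skin, also rose, Lce3c by 6.00 and Lce3d by 8.90. Lce3d was at 39.1, 63 and 214 CPM in MC903 mice, against 0.0395, 0.179 and 0.651 CPM in Vehicle mice. Lce3b had 4979 counts in MC903 mice and 2 in all Vehicle mice together. Rptn, which codes for repetin, was at 708, 1079.6 and 2379 CPM in MC903 mice, against 10.7, 15.6 and 18.1 CPM in Vehicle mice (log2 fold change 6.38, SE 0.37, adjusted p = 9.1e-13). Ivl (involucrin) was at 40.3, 57.7 and 79.7 CPM in MC903 mice, against 46, 58.5 and 69.3 CPM in Vehicle mice, with a log2 fold change of 0.05 that did not pass the test. The enzymes that cross-link the envelope, Tgm1, Tgm3 and Tgm5, rose by 1.44, 1.82 and 1.44. Lce and Sprr genes have near copies, and reads shared between copies were not counted, so that the split within a cluster is uncertain.

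All 25 tested genes of stressed epidermis rose (of 26, Sprr3 being too low to test), with a median of 7.55, or 6.88 with Sprr2k, which had no count in Vehicle mice, at the least fold its counts allow. In 23 of them the groups did not overlap. Krt16 was at 4018, 6211 and 10397 CPM in MC903 mice, against 15.8, 26 and 34 CPM in Vehicle mice (log2 fold change 8.01, SE 0.47, adjusted p = 1.2e-12). Krt6b was at 2961, 5455 and 9687 CPM in MC903 mice, against 11.7, 13.3 and 16.6 CPM in Vehicle mice (log2 fold change 8.64, SE 0.80, adjusted p = 2.1e-09). These keratins of wounded and hyperproliferative skin were far higher in every MC903 mouse than in any Vehicle mouse. Per kilobase of gene length as listed in the count table, the mean level in MC903 mice was 4174 CPM for Krt16 and 6513 CPM for Krt14, and in Vehicle mice 16.2 and 2052 CPM. Sprr1b was at 259, 474 and 1075 CPM in MC903 mice, against 0.395, 1.73 and 10.5 CPM in Vehicle mice. The calprotectin gene S100a8 was at 92.7, 204 and 615 CPM in MC903 mice, against 0.513, 0.755 and 1.3 CPM in Vehicle mice. MC903 mouse 7 had the highest value of its group for S100a8 and mouse 5 the next highest, and the summed level of this list was 21571 to 58405 CPM in MC903 mice and 775 to 990.4 CPM in Vehicle mice.

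**Figure D2:**
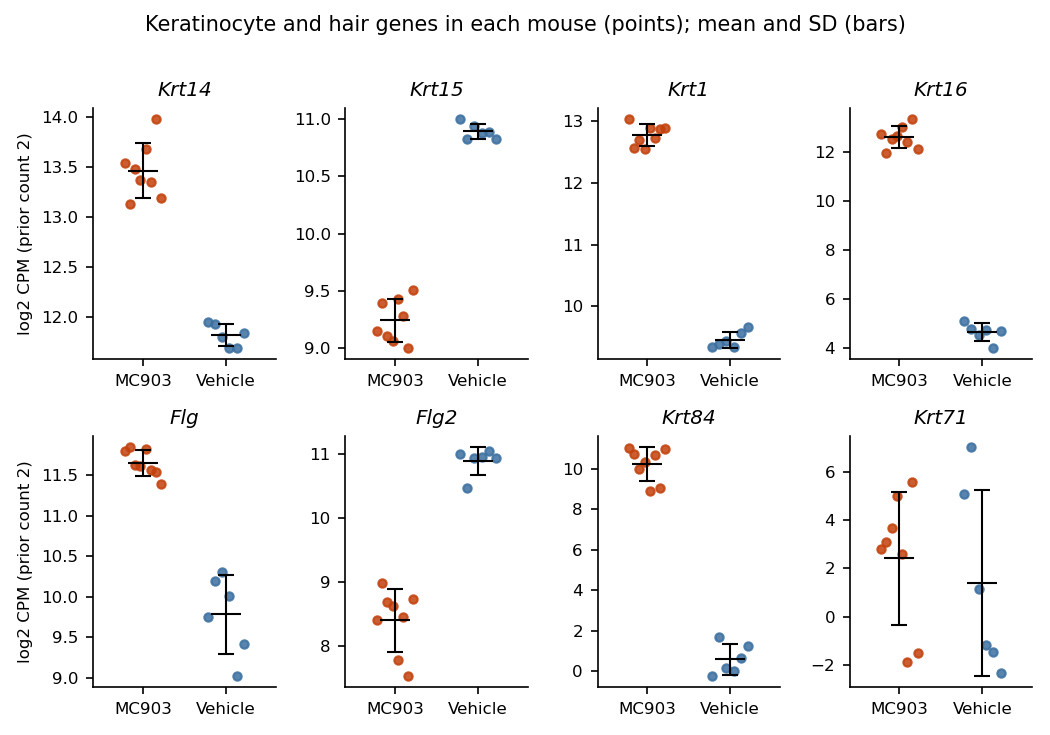
Log2 CPM (y axis, prior count 2) of 8 genes in each of 8 MC903 and 6 Vehicle mice (x axis); points are mice, bars the mean and SD. Krt14, Krt1, Krt16, Flg and Krt84 lie higher in all MC903 mice, Krt15 and Flg2 lower, and Krt71 overlaps, with Vehicle mouse 2 the highest of all.

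Proteases of the surface and their inhibitors rose together. All 14 tested kallikreins, kallikrein inhibitors and partner proteases rose (of 15), by 0.38 for St14 to 7.32 for Klk13. Klk13 was at 200.5, 293 and 476 CPM in MC903 mice, against 1.59, 1.83 and 2.47 CPM in Vehicle mice (log2 fold change 7.32, SE 0.23, adjusted p = 3.4e-18). Klk6 was at 423, 641 and 1252 CPM in MC903 mice, against 10, 13.8 and 19.4 CPM in Vehicle mice (log2 fold change 5.62, SE 0.24, adjusted p = 1.8e-15). Klk7, which cleaves the junctions between corneocytes, rose by 2.70, and Spink5, the inhibitor that is lost in Netherton syndrome, by 0.90. Stefins, which inhibit cysteine proteases, had the highest median of all lists (9.54, and no different with Csta3, which had no count in Vehicle mice, at its least fold), with 10 of 11 tested genes higher and only the cystatin gene Cst3 lower, which fell by 0.45. Cstdc5 was at 438, 772 and 1879.5 CPM in MC903 mice, against 0.079, 0.169 and 0.391 CPM in Vehicle mice. Stfa3 was at 197, 315 and 842 CPM in MC903 mice, against 0.118, 0.527 and 0.781 CPM in Vehicle mice (log2 fold change 9.70, SE 0.67, adjusted p = 2.0e-11). Their copies are near identical, so the values of single stefin genes are uncertain. Cst6, the cystatin of the cornified layer, rose by only 0.21, which was lost in several alternative fits and was -0.06 with unscaled library totals.

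Antimicrobial proteins rose in 11 of 13 genes (median 5.02). Wfdc12, a protease inhibitor of the whey acidic protein family, was at 199.6, 273 and 478 CPM in MC903 mice, against 1.06, 1.28 and 2.05 CPM in Vehicle mice (log2 fold change 7.79, SE 0.44, adjusted p = 9.0e-13). Slpi of the same family was at 57.2, 80.2 and 202 CPM in MC903 mice, against 2.68, 3.04 and 4.43 CPM in Vehicle mice. Reg3g, a lectin against Gram-positive bacteria, had 1280 counts in MC903 mice and 1 in Vehicle mice, and Saa3 3454 and 1. The beta-defensin gene Defb14 rose by 3.88 and Lcn2, which binds bacterial siderophores, by 3.68. Wfdc21 and Lyz1 fell by 0.44 and 0.67, with overlap.

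Enzymes of the barrier lipids did not move as a block, with 15 of 28 higher and 7 lower (median 0.32). Ugcg, which makes glucosylceramide, was at 197, 238 and 333 CPM in MC903 mice, against 75.5, 82.6 and 89.3 CPM in Vehicle mice (log2 fold change 1.58, SE 0.11, adjusted p = 4.0e-13). Cers3, the ceramide synthase of very long acyl chains, rose by 1.04, and Elovl7 by 1.09. In the opposite direction went Fa2h, which hydroxylates the fatty acids of ceramides, at 256, 350.4 and 413 CPM in MC903 mice, against 693, 846 and 1045 CPM in Vehicle mice (log2 fold change -1.32, SE 0.13, adjusted p = 1.4e-09). The fatty acid transporter gene Slc27a4 fell by 0.75, the ceramidase gene Acer1 by 0.70 and the ceramide synthase gene Cers4 by 0.49.

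Cell junction genes rose in 15 of 21 and fell in 2. Of the gap junction genes, Gjb2 (connexin 26) was at 318, 447 and 887 CPM in MC903 mice, against 11.7, 21.7 and 36.5 CPM in Vehicle mice. Gjb6 (connexin 30) was at 106, 142 and 287 CPM in MC903 mice, against 1.26, 1.39 and 2.24 CPM in Vehicle mice (log2 fold change 6.61, SE 0.34, adjusted p = 1.5e-13). Both were without overlap, while Gjb5 had a log2 fold change of 0.02 and did not pass the test. The tight junction gene Ocln and the plakin gene Ppl fell by 0.54 and 0.55, and Cldn4 rose by 1.03. Ligands of the EGF receptor, which drive keratinocyte growth, were unequal. Areg was at 8.96, 16.9 and 38.6 CPM in MC903 mice, against 0.0662, 0.115 and 0.391 CPM in Vehicle mice (log2 fold change 6.93, SE 0.45, adjusted p = 2.7e-12). Epgn was at 16.2, 30.8 and 47.5 CPM in MC903 mice, against 0.254, 0.474 and 0.633 CPM in Vehicle mice. Hbegf was at 15.6, 32.5 and 81.5 CPM in MC903 mice, against 4.63, 5.4 and 6.49 CPM in Vehicle mice. All 3 were without overlap. Egf itself fell by 1.63, and the receptor gene Egfr had a log2 fold change of 0.01, or -0.25 with unscaled library totals. Of 37 proliferation genes 36 rose (median 1.04) and 1 fell, Ccnd1, the cyclin of the early cell cycle, which fell by 0.43. Top2a was at 134, 148 and 157 CPM in MC903 mice, against 45, 54.6 and 60.1 CPM in Vehicle mice (log2 fold change 1.44, SE 0.10, adjusted p = 8.7e-13). Birc5, a subunit of the chromosomal passenger complex, was at 25.1, 31 and 39.3 CPM in MC903 mice, against 7.46, 10.2 and 12.9 CPM in Vehicle mice. The groups overlapped in only 2 of the 37 genes, Kif23 and Gins2.

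In the hair follicle a few keratins rose, while most keratins of the hair shaft and the inner root sheath did not pass the test. Krt84 was at 479, 1469 and 2111 CPM in MC903 mice, against 0.761, 1.25 and 3.13 CPM in Vehicle mice (log2 fold change 9.81, SE 0.76, adjusted p = 1.2e-10). Krt36 was at 503, 1207 and 1665 CPM in MC903 mice, against 0.0372, 0.105 and 1.76 CPM in Vehicle mice (log2 fold change 11.95, SE 0.90, adjusted p = 8.5e-11). These hard keratins are known from nail and tongue papillae as well as hair. Tchh (trichohyalin) was at 1021, 1126 and 1495 CPM in MC903 mice, against 6.26, 7.91 and 185 CPM in Vehicle mice. Krt75, the keratin of the companion layer, was at 120.2, 177 and 202 CPM in MC903 mice, against 9.8, 13.2 and 19.1 CPM in Vehicle mice. Hoxc13, a transcription factor needed for hard keratin expression in hair and nail, was at 26.6, 31.6 and 41.6 CPM in MC903 mice, against 4.45, 4.94 and 5.73 CPM in Vehicle mice (log2 fold change 2.71, SE 0.16, adjusted p = 6.8e-14). Krt84, Krt36, Tchh, Krt75 and Hoxc13 did not overlap between groups. In contrast Krt71, of the inner root sheath, was at 0.184, 7.54 and 47.2 CPM in MC903 mice, against 0.112, 1.25 and 128 CPM in Vehicle mice (adjusted p = 0.531), with wide ranges that overlapped. Krt85, of the hair matrix, was at 0.231, 1.73 and 6.8 CPM in MC903 mice, against 0, 0.229 and 18 CPM in Vehicle mice (adjusted p = 0.687). Vehicle mouse 2 had the highest value of both.

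Of 31 tested hair follicle genes (of 32) 5 rose and 6 fell, and their median was -0.52, or 0.50 without MC903 mouse 7 and Vehicle mouse 2. Genes of stem cells and of the growing follicle were among those lower. Cd34, which marks bulge stem cells and also endothelium, was at 45.3, 53.3 and 64.9 CPM in MC903 mice, against 98.1, 114 and 171 CPM in Vehicle mice (log2 fold change -1.26, SE 0.11, adjusted p = 1.5e-10). Lgr5 and Lhx2, known from follicle stem cells, fell by 1.01 and 0.99, and the homeobox gene Msx2 by 1.19. Of 111 keratin-associated protein genes, which cross-link hair keratins, 93 were tested and 10 rose. Their median log2 fold change was -1.03, or 0.20 without MC903 mouse 7 and Vehicle mouse 2. Their summed level was 133 to 598 CPM in MC903 mice and 38 to 820.4 CPM in Vehicle mice, with the highest Vehicle value again that of mouse 2. The Krtap13 cluster stood apart: Krtap13-20 had 6190 counts in MC903 mice and 0 in Vehicle mice, which is at least 1969-fold higher against a floor of 3 counts over the Vehicle group. Krtap3-1 was at 27.2, 52.9 and 76.1 CPM in MC903 mice, against 0.0744, 0.8 and 18.1 CPM in Vehicle mice (log2 fold change 4.12). The Krtap13 genes are near copies, and their single values are uncertain.

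Sebaceous gland genes fell in 12 of 16. Scd1, the desaturase that marks sebocytes, was at 1622, 1851 and 2125 CPM in MC903 mice, against 4744, 5236 and 5756 CPM in Vehicle mice (log2 fold change -1.49, SE 0.09, adjusted p = 5.2e-14). Scd3 was at 13.4, 17.2 and 21.2 CPM in MC903 mice, against 57.5, 94.5 and 136 CPM in Vehicle mice (log2 fold change -2.47, SE 0.17, adjusted p = 3.1e-12). Far2 and Mc5r fell by 1.36 and 0.94. The wax synthase genes Awat1 and Awat2 had log2 fold changes of -0.09 and 0.18 and did not pass the test. The 1 gene that rose was Fabp5, a fatty acid-binding protein also made by activated keratinocytes (log2 fold change 2.71, SE 0.29, adjusted p = 1.6e-08).

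Among immune cells, T cell genes rose in 17 of 19 (median 2.59). Cd3e was at 3.63, 4.77 and 8.66 CPM in MC903 mice, against 0.28, 0.846 and 1.54 CPM in Vehicle mice (log2 fold change 2.59, SE 0.30, adjusted p = 1.4e-08). Cd4 was at 3.47, 4.34 and 7.19 CPM in MC903 mice, against 1.04, 1.48 and 2.37 CPM in Vehicle mice (log2 fold change 1.63, SE 0.25, adjusted p = 1.4e-06). Cd8a, of cytotoxic T cells, was at 0.587, 1.82 and 2.24 CPM in MC903 mice, against 0, 0.0713 and 0.326 CPM in Vehicle mice (log2 fold change 4.30, SE 0.58, adjusted p = 2.2e-07). The groups did not overlap for any of the 3, though the levels are low, and the summed level of the list was 85.3 to 149 CPM in MC903 mice and 22.2 to 32.6 CPM in Vehicle mice. Cd5 and Cd28 did not pass the test. Trdc, the constant region of the gamma-delta T cell receptor, was at 0.965, 1.82 and 2.25 CPM in MC903 mice, against 0.611, 1.46 and 2.61 CPM in Vehicle mice (log2 fold change 0.16, adjusted p = 0.628), and 4 of the 9 genes of that list were too low to test. Sox13, a factor of gamma-delta T cells that other cells also express, fell by 1.52.

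Foxp3, the factor of regulatory T cells, was at 3.17, 4 and 5.62 CPM in MC903 mice, against 0.0763, 0.158 and 0.253 CPM in Vehicle mice (log2 fold change 4.68, SE 0.40, adjusted p = 5.4e-11). Of 13 genes of regulatory T cells and checkpoints 12 rose and only Ikzf2 fell (log2 fold change -0.63). The inhibitory receptor gene Ctla4 rose by 3.20 and Tigit by 5.60, and the checkpoint ligand gene Cd274 (PD-L1) was at 41.9, 61.8 and 91.9 CPM in MC903 mice, against 10.7, 12.5 and 13.6 CPM in Vehicle mice. Genes of NK and cytotoxic cells rose in 12 of 13 tested (of 14), with a median of 4.22. Gzmb was at 9.39, 12.7 and 27.1 CPM in MC903 mice, against 0, 0.121 and 0.158 CPM in Vehicle mice (log2 fold change 7.21, SE 0.74, adjusted p = 8.9e-09). Ncr1, a receptor of NK cells, was at 1.33, 3.3 and 3.71 CPM in MC903 mice, against 0, 0.0181 and 0.197 CPM in Vehicle mice (log2 fold change 5.85, SE 0.69, adjusted p = 2.8e-08). Of 10 B and plasma cell genes, 7 were too low to test, among them Ms4a1, Cd79a and Jchain, and Cd79b, 1 of the 2 that rose, had at most 1.005 CPM in any mouse, and neither rise passed the test with unscaled library totals.

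Myeloid cells are given by type. For neutrophils 9 of 10 tested genes rose (of 15; median 4.22). Cxcr2, the chemokine receptor of neutrophils, was at 49, 57.4 and 80.4 CPM in MC903 mice, against 3.36, 4.87 and 6.74 CPM in Vehicle mice (log2 fold change 3.57, SE 0.27, adjusted p = 4.5e-11). Csf3r was at 23.1, 28 and 53.6 CPM in MC903 mice, against 1.16, 1.92 and 2.45 CPM in Vehicle mice (log2 fold change 4.14, SE 0.39, adjusted p = 2.5e-09). Ly6g was too low to test, at 0.0472 to 0.369 CPM in MC903 mice and 0 to 0.0662 CPM in Vehicle mice. The granule genes Elane, Camp, Ngp and Ltf, which are transcribed in the bone marrow, were also too low, and Mpo was at 0.209, 0.966 and 1.71 CPM in MC903 mice, against 1.37, 3.4 and 6.44 CPM in Vehicle mice (log2 fold change -2.10, SE 0.61, adjusted p = 0.00368).

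For monocytes and macrophages 13 of 14 genes rose (median 2.28). Ly6c2, of inflammatory monocytes, was at 30.6, 50.8 and 64.4 CPM in MC903 mice, against 1.86, 2.21 and 2.88 CPM in Vehicle mice (log2 fold change 4.40, SE 0.46, adjusted p = 1.3e-08). Ccr2 was at 85.4, 102 and 130.2 CPM in MC903 mice, against 4.61, 8.54 and 11.3 CPM in Vehicle mice. Adgre1, which codes for F4/80, was at 15.9, 21.1 and 25.6 CPM in MC903 mice, against 6.32, 10 and 12.9 CPM in Vehicle mice (log2 fold change 1.07, SE 0.15, adjusted p = 3.2e-07), also without overlap. Csf1r rose by 0.22, which was lost without any 1 of Vehicle mice 1 to 4 and was -0.04 with unscaled library totals. Of 13 genes of resident and alternatively activated macrophages 8 rose and 2 fell, or 7 and 5 with unscaled library totals. Arg1 was at 25.2, 51.2 and 186 CPM in MC903 mice, against 3.5, 4.28 and 6.71 CPM in Vehicle mice. Mrc1 was at 145, 183 and 246 CPM in MC903 mice, against 38.1, 47.6 and 75.9 CPM in Vehicle mice. Both were without overlap. Retnla, the classic target of interleukin-4 in mouse macrophages, was at 0.0773, 0.788 and 1.47 CPM in MC903 mice, against 0.553, 1.58 and 3.91 CPM in Vehicle mice, and F13a1 fell by 0.86. The fall of Retnla (adjusted p = 0.026) was lost without Vehicle mouse 2 or mouse 4. Chil3 had 913 counts in MC903 mice and 5 in Vehicle mice.

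Dendritic cell genes rose in 11 of 16. Cd207 (langerin), of Langerhans cells, was at 13.2, 19.8 and 23.2 CPM in MC903 mice, against 18.7, 22.4 and 26.8 CPM in Vehicle mice (log2 fold change -0.18, adjusted p = 0.281). Ccr7 and Fscn1, of dendritic cells that migrate to lymph nodes, rose by 3.89 and 1.38, and the factor gene Batf3 by 2.88. Of 13 tested genes of mast cells and basophils (of 15) 4 rose and 7 fell. Mcpt8, the protease of basophils, was at 13.2, 19.4 and 30.2 CPM in MC903 mice, against 0, 0.0127 and 0.149 CPM in Vehicle mice (log2 fold change 8.94, SE 0.89, adjusted p = 5.7e-09). Mrgprb2, the receptor by which connective tissue mast cells respond to peptides, was at 0.132, 0.422 and 1.15 CPM in MC903 mice, against 2.34, 3.58 and 6.24 CPM in Vehicle mice (log2 fold change -2.94, SE 0.33, adjusted p = 7.4e-09). The mast cell protease genes Cpa3, Mcpt4 and Tpsb2 each fell by 0.80. Hdc, the enzyme that makes histamine, was at 38.6, 48.7 and 85.8 CPM in MC903 mice, against 3.13, 3.74 and 5.81 CPM in Vehicle mice. Of 10 eosinophil genes 5 were tested and 4 rose, with Siglecf at 0.189, 0.5 and 0.773 CPM in MC903 mice, against 0.0331, 0.0523 and 0.127 CPM in Vehicle mice, while the granule genes Epx, Prg2 and Prg3 were too low to test.

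**Figure D3:**
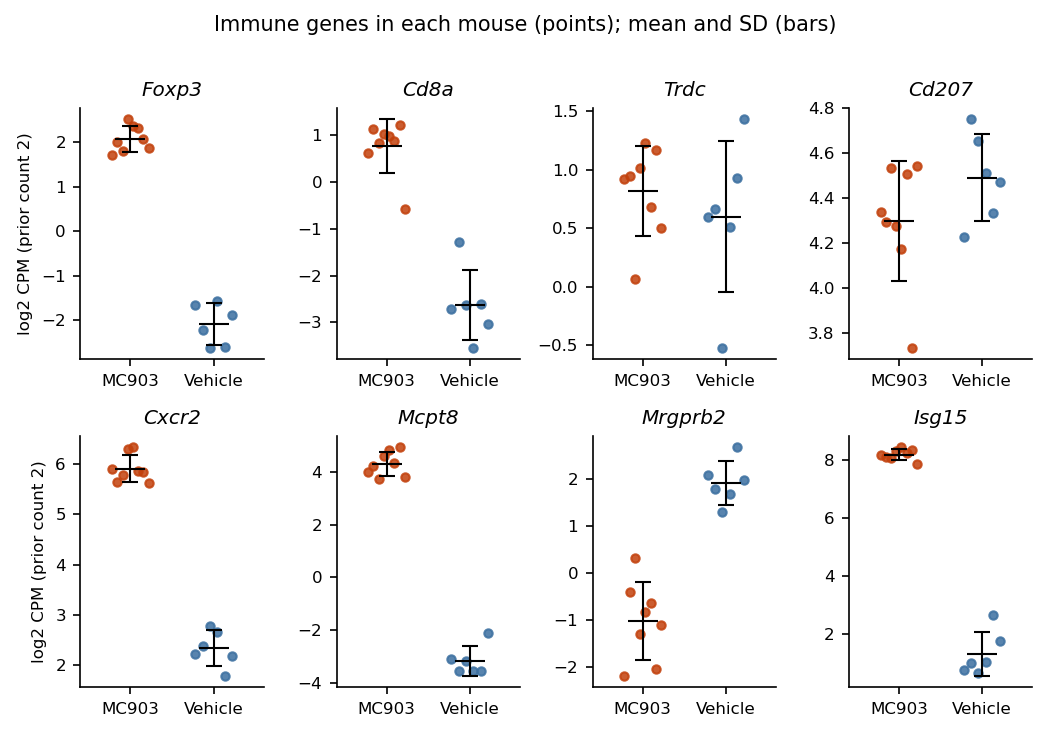
Log2 CPM (y axis, prior count 2) of 8 immune genes in each of 8 MC903 and 6 Vehicle mice (x axis); points are mice, bars the mean and SD. Foxp3, Cd8a, Cxcr2, Mcpt8 and Isg15 lie higher in all MC903 mice, Mrgprb2 lower, and Trdc and Cd207 overlap.

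All 28 type I interferon-induced genes rose and none overlapped (median 5.01), including those whose promoters are printed above. Isg15, a ubiquitin-like protein, was at 234, 297 and 349 CPM in MC903 mice, against 1.5, 1.92 and 6.24 CPM in Vehicle mice (log2 fold change 6.76, SE 0.63, adjusted p = 2.7e-09). Ifit1, which binds viral RNA, was at 178, 250.3 and 271 CPM in MC903 mice, against 0.814, 1.19 and 1.74 CPM in Vehicle mice. Oas1a, a sensor of double-stranded RNA, was at 89.8, 124 and 143 CPM in MC903 mice, against 0.331, 0.803 and 1.34 CPM in Vehicle mice. Each of these lay higher in every MC903 mouse than in any Vehicle mouse. Rsad2 (viperin) was at 86.2, 141 and 211 CPM in MC903 mice, against 0.761, 1.04 and 1.42 CPM in Vehicle mice. The factor gene Irf7 was at 149.6, 260.2 and 300.1 CPM in MC903 mice, against 5.53, 7.74 and 8.34 CPM in Vehicle mice (log2 fold change 5.08, SE 0.47, adjusted p = 2.2e-09). Summed over the list, MC903 mice had 2386 to 3994 CPM and Vehicle mice 140.3 to 204 CPM. All 16 interferon-gamma-induced genes also rose (median 4.52), led by the GTPase gene Iigp1 at 251, 292 and 386 CPM in MC903 mice, against 2.02, 3.81 and 7.7 CPM in Vehicle mice (log2 fold change 6.21, SE 0.69, adjusted p = 4.4e-08). Ido1 and Nos2 were the only ones that overlapped between groups and stayed below 3 CPM.

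Antigen presentation genes rose in 18 of 18 (median 2.15). The immunoproteasome gene Psmb8 was at 231, 283 and 336 CPM in MC903 mice, against 11.6, 15.4 and 19.1 CPM in Vehicle mice (log2 fold change 4.20, SE 0.45, adjusted p = 2.2e-08). H2-K1, of class I, was at 835, 1069.6 and 1218 CPM in MC903 mice, against 169, 221 and 253 CPM in Vehicle mice (log2 fold change 2.33, SE 0.19, adjusted p = 5.2e-11). Of the class II genes, H2-Aa was at 322, 346 and 403 CPM in MC903 mice, against 142, 168 and 210.0 CPM in Vehicle mice (log2 fold change 1.02, SE 0.14, adjusted p = 2.1e-07), and Cd74, the invariant chain, rose by 0.75. The difference between the classes was not tested, and class I genes are near copies of each other. Of 17 tested complement genes (of 19) 10 rose and 5 fell. The C1q genes C1qa, C1qb and C1qc, which macrophages make, rose by 1.39, 1.46 and 1.48. C3 was at 67.3, 80.7 and 106 CPM in MC903 mice, against 86.6, 109 and 265 CPM in Vehicle mice (log2 fold change -0.79, SE 0.19, adjusted p = 8.8e-04), with ranges that overlapped, and Cd55, which protects cells from complement, fell by 1.42.

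In the stroma, genes of the fibroblast matrix fell in 23 of 28 (median -0.91). Col1a1 was at 261, 311 and 435 CPM in MC903 mice, against 600.0, 807 and 992 CPM in Vehicle mice (log2 fold change -1.22, SE 0.15, adjusted p = 7.9e-08). Dcn (decorin) was at 577, 660.1 and 949 CPM in MC903 mice, against 1325, 1451 and 1759 CPM in Vehicle mice (log2 fold change -1.14, SE 0.10, adjusted p = 1.2e-10). Mfap4, a protein of elastic fibres, had the largest fall of the list, at 7.34, 11 and 18.7 CPM in MC903 mice, against 69.3, 88.6 and 148 CPM in Vehicle mice (log2 fold change -3.06, SE 0.22, adjusted p = 1.1e-11). The groups did not overlap in these 3 genes. Dpt and Col14a1, which organise collagen fibrils, fell by 2.16 and 2.05. Pdgfra, a marker of fibroblasts, was at 39.6, 45.7 and 56.8 CPM in MC903 mice, against 47.6, 50.1 and 75.8 CPM in Vehicle mice, and its fall (log2 fold change -0.31, SE 0.11, adjusted p = 0.018) did not pass without Vehicle mouse 5 or 6. The 4 genes that rose were Has3, Tnc, Has1 and Col12a1, and from which cells their rises came was not tested. Has3, a hyaluronan synthase, was at 49.5, 83.6 and 143 CPM in MC903 mice, against 0.636, 0.926 and 1.82 CPM in Vehicle mice (log2 fold change 6.56, SE 0.59, adjusted p = 1.5e-09). Tnc, the tenascin of wounds, was at 262, 318 and 435 CPM in MC903 mice, against 52.7, 65.6 and 81.4 CPM in Vehicle mice (log2 fold change 2.33, SE 0.29, adjusted p = 2.0e-07).

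Matrix proteases and their inhibitors rose in 14 of 23 and fell in 6. Mmp13, a collagenase, was at 35.4, 60.8 and 87.3 CPM in MC903 mice, against 0.13, 0.198 and 0.484 CPM in Vehicle mice (log2 fold change 7.76, SE 0.49, adjusted p = 3.8e-12). Timp1 was at 51.1, 60.4 and 115 CPM in MC903 mice, against 2.03, 2.96 and 3.91 CPM in Vehicle mice (log2 fold change 4.70, SE 0.46, adjusted p = 5.4e-09). The other inhibitor genes of that family, Timp2, Timp3 and Timp4, fell by 1.23, 1.57 and 1.48, and Mmp2, which fibroblasts make, fell by 0.90. Mmp3 had a log2 fold change of 0.08 and did not pass.

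Vessels are given by type. For blood endothelium 5 of 19 genes rose and 9 fell, and the summed level was 292 to 381 CPM in MC903 mice and 291 to 417 CPM in Vehicle mice. Adhesion molecules that capture leukocytes rose, Sele at 5.27, 6.07 and 9.22 CPM in MC903 mice, against 0.781, 1.99 and 2.53 CPM in Vehicle mice (log2 fold change 1.77, SE 0.28, adjusted p = 2.3e-06), Selp with a log2 fold change of 1.22 and Icam1 with 1.39. Pecam1 was at 39.7, 51 and 55.6 CPM in MC903 mice, against 44.5, 52 and 63.4 CPM in Vehicle mice and did not pass, while Vwf, Tek and Cldn5 fell by 1.16, 1.16 and 1.14. In lymphatic endothelium 7 of 8 genes fell: Prox1, the factor that sets lymphatic identity, was at 1.33, 2.02 and 3.14 CPM in MC903 mice, against 5.27, 6.26 and 9.2 CPM in Vehicle mice (log2 fold change -1.70, SE 0.21, adjusted p = 4.3e-08), and Reln and Mmrn1 fell by 1.90 and 1.78. Pdpn rose (log2 fold change 1.25, SE 0.20, adjusted p = 6.3e-06), a gene that keratinocytes and fibroblasts of inflamed skin also express. Of smooth muscle and pericyte genes 7 of 11 fell and 2 rose. Des, which skeletal muscle also expresses, had the highest level of this list in Vehicle mice and fell (log2 fold change -1.54). The channel genes Abcc9 and Kcnj8, which pericytes use together as a potassium channel, both fell. Skeletal muscle genes fell as well, as given below, and from which cells the falls of Des and Abcc9 came was not tested. Abcc9 was at 2.63, 3.72 and 5.44 CPM in MC903 mice, against 18.7, 24.8 and 40.1 CPM in Vehicle mice (log2 fold change -2.84, SE 0.21, adjusted p = 4.5e-12). Kcnj8 was at 1.47, 2.01 and 2.67 CPM in MC903 mice, against 9.31, 11.4 and 18.4 CPM in Vehicle mice (log2 fold change -2.59, SE 0.18, adjusted p = 1.3e-12). Acta2 rose by 0.61, with overlap.

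In metabolism, glycolysis rose in 18 of 21 genes (median 1.13). Ldha, which makes lactate, was at 632, 682 and 966 CPM in MC903 mice, against 232, 255 and 317 CPM in Vehicle mice (log2 fold change 1.49, SE 0.12, adjusted p = 2.9e-11). Pkm was at 949.5, 1109.7 and 1299 CPM in MC903 mice, against 431, 446 and 467 CPM in Vehicle mice (log2 fold change 1.32, SE 0.10, adjusted p = 7.9e-12). Slc16a3, a lactate exporter, was at 15, 24.9 and 38.8 CPM in MC903 mice, against 3.87, 4.94 and 6.95 CPM in Vehicle mice. Pfkm, the phosphofructokinase of muscle, fell by 2.21, beside the fall of the muscle genes given below. Gapdh was at 12, 16.8 and 25.5 CPM in MC903 mice, against 6.56, 7.31 and 10.4 CPM in Vehicle mice (log2 fold change 1.25, SE 0.19, adjusted p = 1.6e-06). It has many processed pseudogenes, and reads that align to several places were not counted. Lipogenesis went the other way, with 15 of 17 genes lower and 0 higher. Sebaceous gland genes fell as well, as given above, and adipocyte genes, as given below. From which cells the falls of lipogenesis genes came was not tested. Fasn was at 153, 203 and 233 CPM in MC903 mice, against 325, 412 and 448 CPM in Vehicle mice (log2 fold change -1.03, SE 0.09, adjusted p = 9.5e-11), Acacb fell by 2.16 and Srebf1, the factor that drives these genes, by 1.05. Cholesterol synthesis was mixed, 4 higher and 8 lower of 21, or 1 and 14 with unscaled library totals and 7 and 8 without MC903 mouse 7 and Vehicle mouse 2. Lss fell by 0.80 and Msmo1 by 0.74.

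Nuclear genes of oxidative phosphorylation rose in 50 of 74 and fell in 4 (median 0.37), and mitochondrial genes rose in 0 and fell in 8 of 13 (median -0.29). The first count depends on the scaling, being 18 higher and 18 lower with unscaled library totals, where the ribosomal proteins were 9 higher and 1 lower in place of 60 and 1 of 83. Of the mitochondrial genes, mt-Nd5 had 649 to 1022 CPM in MC903 mice and 1116 to 1673 CPM in Vehicle mice, and mt-Nd2 had 630.4 to 809.8 CPM in MC903 mice and 959 to 1170.3 CPM in Vehicle mice. Ndufa4 was the nuclear gene with the smallest p among rises (log2 fold change 1.43, SE 0.14, adjusted p = 1.1e-09). Of 22 genes of the citrate cycle and fatty acid oxidation 5 rose and 10 fell, or 1 and 17 with unscaled library totals. Acadm and Acadl, which act on fatty acids of medium and long chains, moved apart. Acadm was at 70.8, 74.6 and 90.4 CPM in MC903 mice, against 137, 144 and 154 CPM in Vehicle mice (log2 fold change -0.93, SE 0.07, adjusted p = 1.1e-11). Acadl was at 185, 206 and 246 CPM in MC903 mice, against 70.2, 84.2 and 98.3 CPM in Vehicle mice (log2 fold change 1.32, SE 0.12, adjusted p = 3.4e-10).

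Enzymes that handle foreign compounds fell in 22 of 30 tested (of 31) and rose in 5. Gsta3, a glutathione transferase, was at 0.628, 1.66 and 2.77 CPM in MC903 mice, against 11.8, 13.4 and 15.6 CPM in Vehicle mice (log2 fold change -3.03, SE 0.18, adjusted p = 4.0e-14). Ces1d, a carboxylesterase of fat and liver, was at 5.18, 8.59 and 12.2 CPM in MC903 mice, against 43.7, 48.9 and 56.9 CPM in Vehicle mice (log2 fold change -2.52, SE 0.17, adjusted p = 1.8e-12). Cyp1b1 rose by 0.95 and Cyp1a1 fell by 0.81. Of 14 NRF2 antioxidant genes 11 rose and 3 fell. Hmox1 was at 141, 169 and 196 CPM in MC903 mice, against 50.1, 57.1 and 59.5 CPM in Vehicle mice (log2 fold change 1.61, SE 0.07, adjusted p = 2.8e-16). Cat, which codes for catalase, was at 41.7, 50.5 and 58.8 CPM in MC903 mice, against 124, 135 and 162 CPM in Vehicle mice (log2 fold change -1.49, SE 0.08, adjusted p = 2.3e-15). Both were without overlap. Gclc fell by 0.57 while Gclm, the other subunit of the same ligase, rose by 0.44.

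Retinoid genes changed with 6 higher and 7 lower of 15. Lrat, which stores retinol as an ester, was at 29.4, 34.4 and 41.2 CPM in MC903 mice, against 0.916, 1.63 and 4.07 CPM in Vehicle mice (log2 fold change 4.07, SE 0.31, adjusted p = 7.0e-11). Aldh1a1, which makes retinoic acid, was at 2.7, 5.15 and 6.19 CPM in MC903 mice, against 23.6, 26.1 and 32.5 CPM in Vehicle mice (log2 fold change -2.41, SE 0.14, adjusted p = 2.1e-14), and Aldh1a3, which does the same, rose by 3.15. Rbp4, which carries retinol in blood, fell by 2.28, and Stra6, a receptor of Rbp4, fell by 3.04. Prostaglandin synthesis genes rose in 8 and fell in 2 of 17, or 8 and 6 with unscaled library totals. Ptges, the inducible synthase of prostaglandin E2, was at 334, 424 and 454 CPM in MC903 mice, against 64.1, 75.2 and 90.1 CPM in Vehicle mice (log2 fold change 2.42, SE 0.10, adjusted p = 1.4e-17). Ptgs2 (COX-2) was at 9.52, 31 and 140.4 CPM in MC903 mice, against 0.237, 0.846 and 1.24 CPM in Vehicle mice (log2 fold change 5.73, SE 0.76, adjusted p = 5.2e-07). MC903 mouse 7 had the highest Ptgs2. Alox8, a lipoxygenase of irritated mouse skin, was at 102, 194 and 370.0 CPM in MC903 mice, against 0.782, 1.1 and 1.76 CPM in Vehicle mice (log2 fold change 7.58, SE 0.58, adjusted p = 1.0e-10).

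Among enzymes of arginine, polyamines, tryptophan and purines 12 of 16 tested (of 17) rose and 2 fell, or 1 without MC903 mouse 7 and Vehicle mouse 2 and by DESeq2. Smox, spermine oxidase, was at 75.7, 119 and 168 CPM in MC903 mice, against 15.1, 18.2 and 20.9 CPM in Vehicle mice (log2 fold change 2.72, SE 0.17, adjusted p = 3.7e-13). Xdh, which makes urate, was at 225, 272 and 307 CPM in MC903 mice, against 78.3, 86.5 and 101 CPM in Vehicle mice (log2 fold change 1.63, SE 0.11, adjusted p = 4.8e-13), and Uox, which breaks urate down in the liver of mice, had 4824 counts in MC903 mice and 3 in Vehicle mice. Adk, adenosine kinase, fell by 0.85. Of 13 genes of endoplasmic reticulum stress 12 rose and 0 fell, with Hspa5 (BiP) at 549, 626 and 811 CPM in MC903 mice, against 289, 306 and 334 CPM in Vehicle mice (log2 fold change 1.04, SE 0.11, adjusted p = 1.1e-09) and Asns, asparagine synthetase, up by 1.32.

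Circadian clock genes fell in 14 of 16 (median -1.29). Per3 was at 19, 24.7 and 31.9 CPM in MC903 mice, against 77.6, 86.2 and 109 CPM in Vehicle mice (log2 fold change -1.83, SE 0.16, adjusted p = 1.6e-10). Dbp, an output gene of the clock, was at 17.6, 27.8 and 43.1 CPM in MC903 mice, against 104, 118 and 149 CPM in Vehicle mice (log2 fold change -2.08, SE 0.20, adjusted p = 3.1e-09). Nr1d1, a repressor of Bmal1, fell by 1.24 and Bmal1 itself by 0.43. Cry1 and Bhlhe40, which act as repressors of the clock, rose by 0.67 and 1.39. The hour at which the ears were taken is not given in the sources used here.

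**Figure D4:**
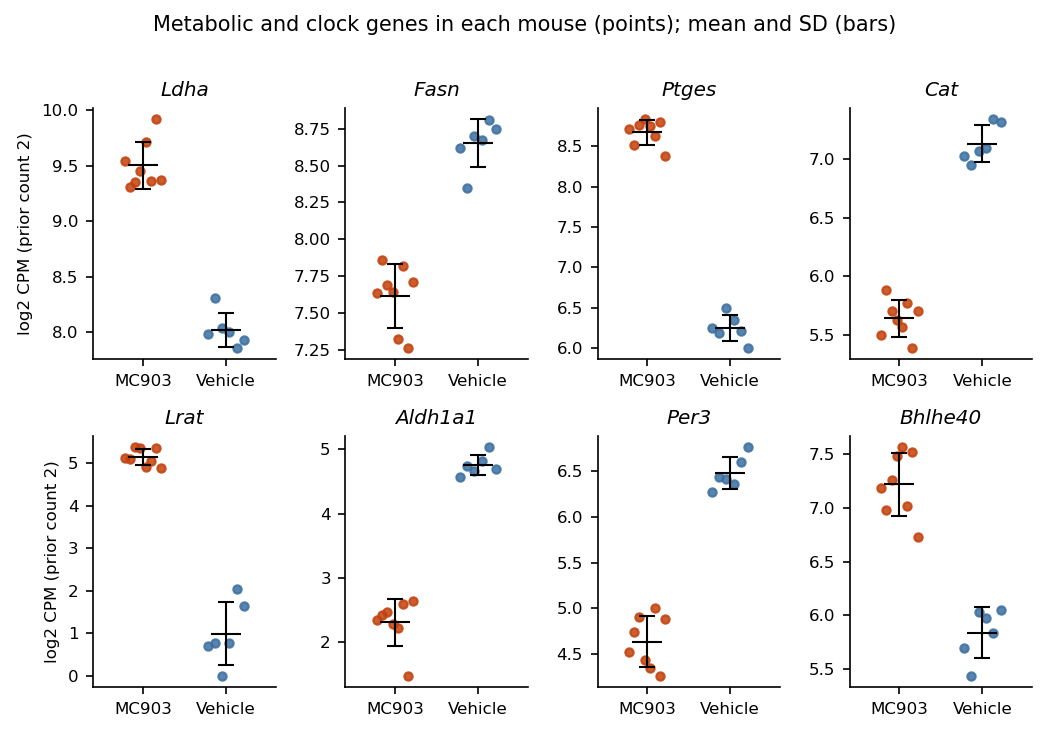
Log2 CPM (y axis, prior count 2) of 8 metabolic and clock genes in each of 8 MC903 and 6 Vehicle mice (x axis); points are mice, bars the mean and SD. Ldha, Ptges, Lrat and Bhlhe40 lie higher in all MC903 mice, and Fasn, Cat, Aldh1a1 and Per3 lower.

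Genes of resident tissues fell in MC903 ears in most members of each list but blood. All 26 skeletal muscle genes fell (median -2.56), 25 of them as DEGs. Ckm, the creatine kinase of muscle, was at 15.8, 23.4 and 36.5 CPM in MC903 mice, against 135, 189.6 and 264 CPM in Vehicle mice (log2 fold change -3.04, SE 0.28, adjusted p = 2.0e-09). Ttn (titin) was at 31.7, 61.9 and 69.8 CPM in MC903 mice, against 196, 429 and 612 CPM in Vehicle mice (log2 fold change -2.76, SE 0.27, adjusted p = 4.0e-09). Pax7, of muscle stem cells, was at 0.0524, 0.239 and 0.464 CPM in MC903 mice, against 0.695, 1.49 and 1.94 CPM in Vehicle mice (log2 fold change -2.57, SE 0.34, adjusted p = 1.3e-07). The summed level of the list was 519.7 to 1242 CPM in MC903 mice and 3511 to 7762 CPM in Vehicle mice. Among the other genes with the largest falls were Clcn1, the chloride channel of muscle, which fell by 3.60, and Mylk4, a myosin light chain kinase, which fell by 3.80.

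Adipocyte genes fell in 17 of 19 (median -1.63). Lep (leptin) was at 0.786, 1.38 and 1.92 CPM in MC903 mice, against 7.74, 11.3 and 15.1 CPM in Vehicle mice (log2 fold change -2.98, SE 0.21, adjusted p = 1.0e-12). Adipoq was at 1.62, 3.32 and 5.23 CPM in MC903 mice, against 15.8, 20.9 and 28.6 CPM in Vehicle mice (log2 fold change -2.71, SE 0.22, adjusted p = 2.8e-11). Slc2a4, the glucose transporter that insulin moves to the surface, was at 4.33, 5.98 and 7.75 CPM in MC903 mice, against 23.2, 33.1 and 40.5 CPM in Vehicle mice (log2 fold change -2.40, SE 0.16, adjusted p = 1.1e-12). In none of these 3 did the groups overlap. Slc2a4 and Car3, another gene of this list, are also expressed in skeletal muscle, whose genes fell as given above. Car3 had the highest level of the list in Vehicle mice, with a mean of 502 CPM. For these genes falls in fat and in muscle cannot be told apart. Lipe and Ucp1 rose, by 0.38 and 1.18, with ranges that overlapped. Cartilage genes fell in 17 of 18 tested (of 20). Acan (aggrecan) was at 41.7, 50.9 and 62.5 CPM in MC903 mice, against 105, 115 and 141 CPM in Vehicle mice (log2 fold change -1.25, SE 0.09, adjusted p = 4.0e-12). Col11a2 was at 15.2, 21 and 27.5 CPM in MC903 mice, against 57.4, 78.3 and 93.7 CPM in Vehicle mice (log2 fold change -1.85, SE 0.14, adjusted p = 1.7e-11). Col2a1, the main collagen of cartilage, was at 9.64, 13 and 19.4 CPM in MC903 mice, against 16.7, 19.4 and 30.1 CPM in Vehicle mice and fell by 0.72, with overlap.

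Schwann cell and nerve genes fell in 14 of 15 (median -1.25). Sox10, the factor of Schwann cells and melanocytes, was at 3.01, 4.82 and 6.22 CPM in MC903 mice, against 8.44, 9.39 and 17.2 CPM in Vehicle mice (log2 fold change -1.25, SE 0.18, adjusted p = 8.1e-07). Melanocyte genes fell in 10 of 12 (median -0.63), Tyrp1 by 0.97 and Mitf by 0.64, while Dct, at 59.9, 63 and 73.1 CPM in MC903 mice, against 44.4, 54.1 and 74.6 CPM in Vehicle mice, did not pass. Tyr and Pmel lost their calls without MC903 mouse 7 and Vehicle mouse 2. Red blood cell genes did not rise or fall in 5 of 6 tested (of 8). Hbb-bs was at 20.4, 50.1 and 64.3 CPM in MC903 mice, against 20, 30.9 and 42.4 CPM in Vehicle mice (adjusted p = 0.102), and MC903 mouse 7 had the lowest summed level of the list in its group, 68.8 CPM. In a fit of only these 14 libraries 4 of the 6 passed as higher. Whether the share of each tissue in the punch differed between the groups was not tested.

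**Figure D5:**
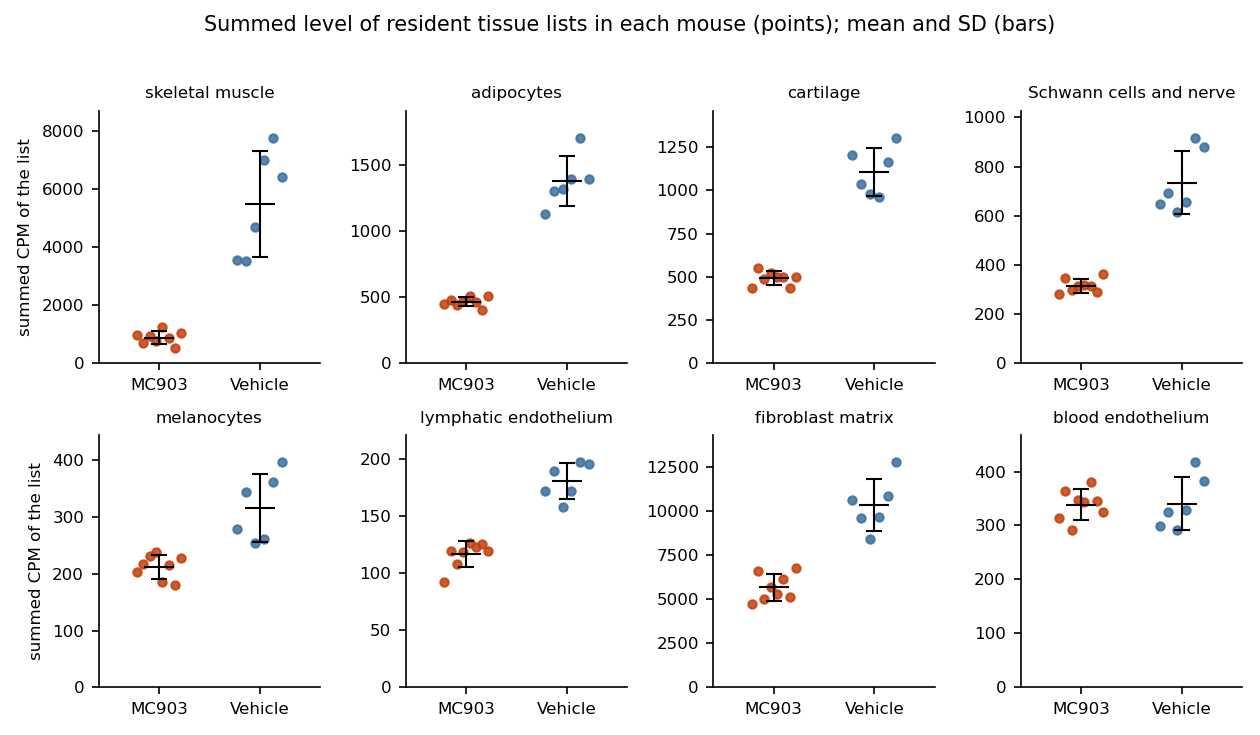
Summed CPM (y axis) of 8 gene lists in each of 8 MC903 and 6 Vehicle mice (x axis); points are mice, bars the mean and SD. Skeletal muscle, adipocytes, cartilage, Schwann cells, melanocytes, lymphatic endothelium and fibroblast matrix are lower in every MC903 mouse, and blood endothelium overlaps.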

How the data were processed

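RNA-seq of ear punches, 1 library per mouse, was analysed from raw counts per gene. The deposited counts were made by the authors with Subread 2.10.3 on GRCm39 from a strand-specific library. They counted only uniquely aligned, unambiguous reads, so that genes with near copies are undercounted. The annotation release is not given in the sources used here. Of 57010 identifiers, 56284 were paired with a symbol of GENCODE and 726 (0.0634% of counts) were not, and 17061 had no count. Gene length is the deposited column and is no measurement.

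Genes were filtered with filterByExpr (minimum count 10, minimum total 15), scaled by TMM and fitted with edgeR 4.0.16 (glmQLFit, robust, R 4.3.3) over all 26 libraries with 1 mean per group, for the contrast MC903 minus Vehicle. SE is the log2 fold change divided by the root of F. CPM uses the scaled library size, and figures show log2 CPM with a prior count of 2. The limit of 1.5 on the log2 fold change for DEGs is that of the study. A fold against a group without counts used a floor of 3 counts over that group. The fit was also run on simulated counts of 14 libraries in which few genes were changed, equally in both directions. That does not test the scaling in these data, where 70.2% of genes passed. Tables and figures used Python 3.11.15, numpy 2.4.6, pandas 2.3.3 and matplotlib 3.10.9.

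The 55 lists (1187 genes, 2 further entries not found) were written with earlier results of these data known, and list counts are descriptions. Named genes were the 15 largest rises and falls without overlap, with no provisional symbol and a group mean of 2 or more in log2 CPM, anchor genes of each list, and the 3 members with the smallest p per direction. Other members were named after their values were seen. A few genes are not reported here by name, and they remain in the counts, sums and medians of their lists. The labels do not say whether mice came from separate cages or days of preparation. The paper reports 2 independent experiments for its ear thickness figure, and the labels do not assign mice to them. P-values measure the spread between mice within the groups of all 26 libraries, and no such batch could be modelled.

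Alternatives were DESeq2 1.42.0, its size factors, library totals, other filters and limits, only these 14 libraries, the mouse number as a block, and leaving out mice. Leaving out MC903 mouse 7 and Vehicle mouse 2 together was chosen after the data were seen.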

Additional observations from a re-analysis of the deposited data

Results flagged for a closer look

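In each group the highest or lowest mouse was set against the others by Dixon's ratio, on the log2 scale, for 251 named genes and the summed levels of 55 lists. Of 608 such groups of values 45 held a mouse beyond the 95% critical value, where chance gives about 1 in 20, or 30.4. That share does not hold where all other mice of a group had no count, as for Saa3, Reg3g and Cyp24a1 in Vehicle mice. Any count then gives the largest possible ratio. The values are given in CPM.

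MC903 mouse 7 stood apart as the highest of its group at 2780.0 for Cyp24a1, 136 for Awat1, 80.9 for Mmp3 and 811 for Hspa5. MC903 mouse 7 stood apart as the lowest of its group at 0.773 for Egf, 1.7 for Trpv6, 13.2 for Cd207, 28.9 for Pfkm, 2.7 for Aldh1a1, 31.7 for Ttn and 0 for Nnat. MC903 mouse 7 stood apart as the highest in summed level, with 3205 for vitamin D axis and 934 for retinoid metabolism. MC903 mouse 7 stood apart as the lowest in summed level, with 68.8 for blood. MC903 mouse 8 stood apart as the highest of its group at 51.8 for Mcpt4, 949 for Dcn and 90.4 for Acadm. MC903 mouse 8 stood apart as the lowest of its group at 0.587 for Cd8a, 1.07 for Ccr7, 89.8 for Oas1a, 149.6 for Irf7 and 0.0533 for Ido1. MC903 mouse 5 stood apart as the lowest of its group at 4.08 for Msx2. MC903 mouse 5 stood apart as the highest in summed level, with 11 for eosinophils. MC903 mouse 4 stood apart as the highest of its group at 9.22 for Sele.

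Vehicle mouse 2 stood apart as the highest of its group at 4.43 for Slpi and 0.13 for Uox. Vehicle mouse 2 stood apart as the lowest of its group at 1069 for Col17a1, 1409.6 for Flg2 and 605 for Ppl. Vehicle mouse 2 stood apart as the highest in summed level, with 928 for hair follicle and hair keratins and 6974 for nuclear oxidative phosphorylation. Vehicle mouse 2 stood apart as the lowest in summed level, with 381 for EGF receptor ligands and receptors. Vehicle mouse 1 stood apart as the highest of its group at 7.31 for Trpv6 and 10.4 for Gapdh. Vehicle mouse 1 stood apart as the lowest of its group at 5.53 for Irf7. Vehicle mouse 4 stood apart as the highest of its group at 0.0362 for Saa3 and 0.687 for Cyp24a1. Vehicle mouse 4 stood apart as the lowest of its group at 0 for Gzmb. Vehicle mouse 5 stood apart as the highest of its group at 0.197 for Ncr1 and 54 for Lipe. Vehicle mouse 5 stood apart as the lowest of its group at 2.49 for Cd5. Vehicle mouse 6 stood apart as the highest of its group at 0.0372 for Reg3g, 123 for Ccnd1 and 0.149 for Mcpt8.

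MC903 mouse 7 and Vehicle mouse 2, which hold the fewest counts of their groups, made up 14 and 8 of these. What set single mice apart was not tested.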

How the results depend on the processing

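With library totals and no scaling factor 4407 genes rose, against 6951 with TMM. DEG rises numbered 2743 with no filter on low counts and 2393 at a log2 limit of 1, against 1504. DEG falls numbered 1004 among genes with a mean normalized count above 25, 607 when tested against the limit of 1.5 itself, and 2976 at a limit of 1, against 1528. DESeq2 gave 7752 rises and 7421 falls, with 2131 and 1913 DEGs. Leaving out 1 mouse at a time gave 6495 to 6935 rises, 6983 to 7289 falls, 1413 to 1537 DEG rises and 1454 to 1598 DEG falls. With the mouse number as a replicate block 6695 genes rose and 6937 fell, with 1508 and 1564 DEGs. Same-numbered mice did not deviate together (correlations of -0.23 to 0.24, and 1 of 6 numbers correlated best with itself). Library totals turned the log2 fold changes of Cs (-0.24), Egfr (-0.25), Xbp1 (-0.00717), Sqle (-0.0135), Vdr (-0.0712), Csf1r (-0.0354), Cst6 (-0.0589) and Abca12 (-0.0375) below 0. The counts changed with these settings, and which genes made them up was not compared. Genes too low to pass the filter on counts, 7 of the 10 of B and plasma cells among them, were not tested at this depth.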
